A study of Sus scrofa with 12 samples.

Results

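The microRNA ssc-miR-204, the gene TRPM3 that hosts it, and EAF1, a gene predicted to be its target, were followed through the livers of 2 pig breeds. They are 3 of 32105 listed features, 411 mature miRNAs and 31694 mRNA identifiers. They were taken by name, with their breed difference already known, so the values of these 3 features are a description and carry no test. Liver was collected from 3 Jinhua (JH) and 3 Landrace (LD) pigs, all uncastrated males of 70 days of age, with JH labelled as the experimental group and LD as the control. No pig received a treatment in the labels or the study's methods, and nothing states whether the breeds shared a farm, diet or litter, so these cannot be told apart from breed. Each pig name has 1 small RNA library and 1 mRNA library, and libraries of the same name were read as the same pig.

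A microRNA guides Argonaute proteins to partly complementary sites in mRNAs, which lowers the stability or translation of those mRNAs. The gene of miR-204 lies in an intron of TRPM3, a cation channel of the melastatin family, and is known from the retinal pigment epithelium, the choroid plexus and the differentiation of fat and bone cells. EAF1 is the ELL associated factor 1, which binds the ELL elongation factors of RNA polymerase II and is also known as a negative regulator of Wnt/β-catenin signalling. In liver, Wnt signalling sets the gene expression of hepatocytes around the central vein.

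MiRNA levels are reads scaled to the clean reads of the library (RPM), and mRNA levels are reads scaled to gene length and to the reads of the library (RPKM). The small RNA libraries held 10672375 to 13932322 clean reads, and 1 read was worth 0.0718 to 0.0937 RPM. The mRNA values rested on 5744911 to 7914517 reads per library, as recovered from the values. Values of miRNAs began at 10 reads, and up to 9 reads may therefore be hidden behind a miRNA listed at 0. The hepatocyte gene APOB and the macrophage gene CD163 were listed at 0 in all 6 mRNA libraries, so a listed 0 was not read as absence. The ribosomal RNA entry RN18S ranged from 1570 to 62257 RPKM, with the highest value in JH3.

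The level of ssc-miR-204 was 144 RPM in JH1, 172 RPM in JH2 and 114 RPM in JH3. It was 1202 RPM in LD1, 1430 RPM in LD2 and 1252 RPM in LD3. The lowest LD library was 6.99 times the highest JH library, and within a breed the libraries differed by at most 1.503 times. These levels stood for 1813, 2098 and 1221 reads in JH and for 16042, 18176 and 17444 reads in LD.

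The mean of ssc-miR-204 was 143 ± 28.8 RPM (SD, n = 3) in JH and 1295 ± 119 RPM (SD, n = 3) in LD, a ratio of means of LD over JH of 9.04. On the log2(RPM + 0.5) scale the difference of JH over LD was -3.19 (standard error 0.23). It was the largest absolute difference among the 241 miRNAs with at least 1 RPM in at least 3 libraries. The median difference of these 241 miRNAs was -0.30, and after the libraries were brought to one median the difference of ssc-miR-204 was -2.79. The coefficient of variation was 20.1% in JH and 9.23% in LD.

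Among the listed miRNAs, ssc-miR-204 ranked 86, 77 and 95 in JH1, JH2 and JH3 and 34, 30 and 33 in LD1, LD2 and LD3. It therefore belonged to the upper part of the 238 to 251 miRNAs above 0 in LD and to the middle in JH. Its share of all listed miRNA reads was 0.0175%, 0.0226% and 0.0149% in JH and 0.153%, 0.2003% and 0.161% in LD. In the order of breed means it stood in JH between ssc-miR-1, the muscle miRNA, at 147 ± 42.2 RPM (SD, n = 3) and ssc-miR-339 at 143 ± 48.1 RPM (SD, n = 3). In LD it stood between ssc-miR-125b at 1301 ± 161 RPM (SD, n = 3) and ssc-miR-148b-3p at 1283 ± 120 RPM (SD, n = 3). It differed from each of these neighbours by less than their SD.

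**Figure D1:**
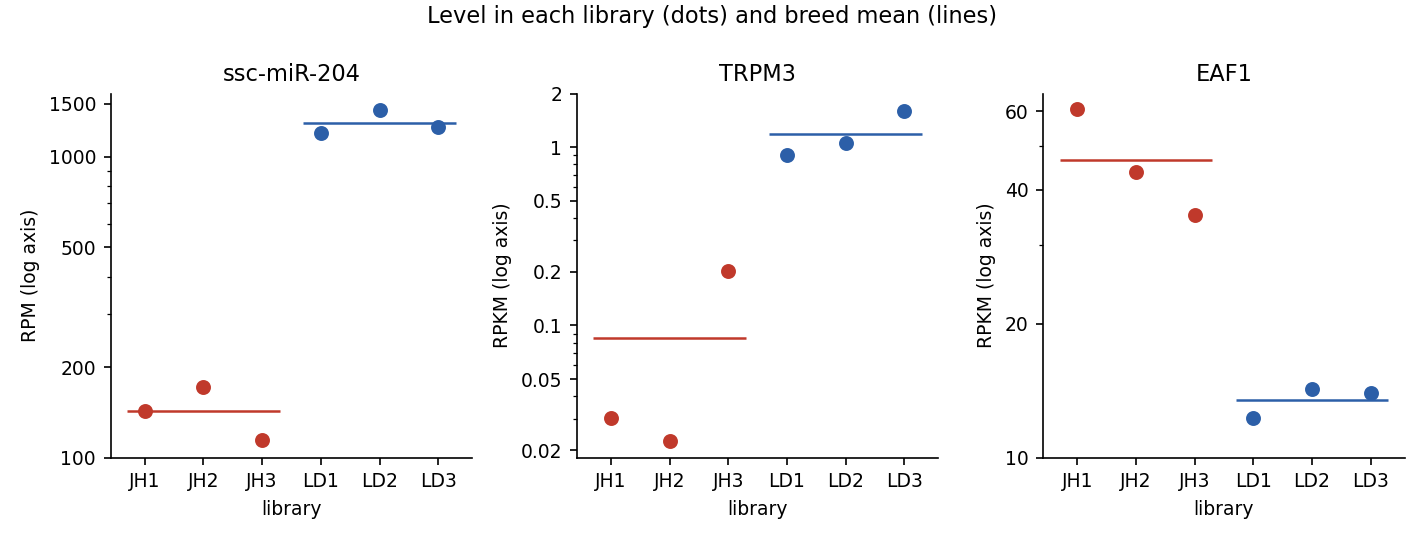
Level of ssc-miR-204 (RPM), TRPM3 and EAF1 (RPKM) in each library on log axes. Dots are single libraries and lines are breed means of 3 libraries, JH in red and LD in blue. The JH and LD dots do not overlap in any panel, with JH below LD for ssc-miR-204 and TRPM3 and above LD for EAF1.

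TRPM3 was at the edge of detection in JH. JH1 had 0.0303, JH2 0.0224 and JH3 0.202 RPKM, which stood for 1, 1 and 9 reads. In LD it was 0.906 RPKM in LD1, 1.06 RPKM in LD2 and 1.60 RPKM in LD3, which stood for 37, 48 and 73 reads. Every LD library was above every JH library, and the lowest LD level was 4.48 times the highest JH level.

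The mean of TRPM3 was 0.0850 ± 0.102 RPKM (SD, n = 3) in JH and 1.19 ± 0.367 RPKM (SD, n = 3) in LD, so the spread in JH exceeded the JH mean. Summed over libraries there were 11 reads in JH and 158 reads in LD. Relative to all mRNA reads of each breed the ratio of LD over JH was 13.3, with an exact 95% interval of 7.24 to 27.2 that covers counting error only. On the log2(RPKM + 0.1) scale the difference of JH over LD was -2.89 (standard error 0.61), and this value depended on the pseudocount, with -1.004 at a pseudocount of 1 and -4.16 at 0.01. TRPM3 had at least 0.5 RPKM in 3 libraries, the limit for entering the fit, only through the LD libraries. The entry of the miR-204 gene itself, MIR204, was listed at 0 in all 6 mRNA libraries.

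EAF1 lay in the opposite direction. JH1 had 60.7, JH2 43.8 and JH3 35.1 RPKM, against 12.3 RPKM for LD1, 14.3 RPKM for LD2 and 14.0 RPKM for LD3. The lowest JH library was 2.46 times the highest LD library. The libraries within JH differed by up to 1.73 times and those within LD by up to 1.16 times. Between 373 and 1493 reads stood behind each value.

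The mean of EAF1 was 46.5 ± 12.99 RPKM (SD, n = 3) in JH and 13.5 ± 1.09 RPKM (SD, n = 3) in LD, a ratio of means of JH over LD of 3.44. The log2(RPKM + 0.1) difference of JH over LD was 1.74 (standard error 0.26). When every library was scaled to the sum of all genes other than RN18S, it was 1.63. Among the 12993 genes in the fit, 211 had a difference at least as high, EAF1 itself included. At or below EAF1 were 90.4% to 92.6% of the genes with a value in the JH libraries and 77.9% to 82.3% of them in LD.

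The 3 JH values did not overlap the 3 LD values for any of the 3 features. Such separation was seen for 23.4% of the 12993 genes, 10.8% with JH higher and 12.5% with JH lower. For the 241 miRNAs it was 33.6%, with 3.73% higher and 29.9% lower in JH. The features were chosen on this contrast, so nothing is read from their count. Within the breeds the order of pigs differed between features. In LD, ssc-miR-204 and EAF1 were both highest in LD2 and lowest in LD1, while TRPM3 was highest in LD3. In JH, ssc-miR-204 was highest in JH2, EAF1 in JH1 and TRPM3 in JH3. Within neither breed was the pig with the most ssc-miR-204 the one with the least EAF1. For EAF1, LD2 and LD3 were close, with 482 and 475 reads. The order of 3 pigs cannot show whether the features are linked within a breed, and this was not tested.

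All genes that passed the filter, TRPM3 and EAF1 included, were compared between the breeds with limma on log2(RPKM + 0.1). A gene was called at a Benjamini-Hochberg adjusted p under 0.05 with an absolute log2 difference over 1. The calls of the members themselves are not read. The background was 310 called genes of 12993, or 2.39%, with 1.02% higher and 1.36% lower in JH, a median difference of 0.04 and 17.9% of genes at an unadjusted p under 0.05. With 1 library left out the number of called genes ran from 79 without LD1 to 406 without JH3, so the background itself is loosely fixed. MiRNAs were called at an unadjusted p under 0.05 with the same limit of the log2 difference. The background there was 30 of 241 miRNAs, ssc-miR-204 included, or 12.4%, with 2.07% higher and 10.4% lower in JH. With the libraries brought to one median, the split of called miRNAs went from 5 higher and 25 lower in JH to 10 higher and 10 lower.

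The log2 differences of ssc-miR-204 and its host were 0.29 apart at the pseudocounts used. This gap rests on the 1, 1 and 9 reads of TRPM3 in JH, and it was 2.18 with an RPKM pseudocount of 1, 0.97 with 0.01 and 0.91 under quantile normalization. To set this beside other pairs, each miRNA with 1 gene locus was placed in the gene that spans it in the RefSeq annotation of Sscrofa11.1. That table gave no strand, so hosts on the opposite strand could be included. Of 93 such pairs, 67 had both partners in the fits, with 43 different hosts. In the other 66 pairs the gap ran from 0.03 to 2.46 with a median of 0.38, and 29 of them had a smaller gap than ssc-miR-204 and TRPM3. With a pseudocount of 1 all 66 had a smaller gap, and with 0.01 or quantile normalization 54 had. The place of the pair among the others therefore depended on the pseudocount.

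The other pairs are given as a description, since ssc-miR-204 and TRPM3 were taken with their difference known. Across the 42 other hosts the log2 difference ran from -0.88 to 1.53, and across their miRNAs from -2.07 to 1.28. Of these 42 hosts limma called 0, with 9 at an unadjusted p under 0.05, and 5 of the 66 miRNAs were called. The widest gaps, 2.03 to 2.46, were those of ssc-miR-143-3p, ssc-miR-143-5p, ssc-miR-145-3p and ssc-miR-145-5p, miRNAs of smooth muscle and fibroblasts. By position these lay in IL17B, a cytokine gene with a log2 difference of 1.31 (adjusted p = 0.264 from limma). The next was ssc-miR-130b in LOC100155534, with log2 differences of 0.00 and 1.53.

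The narrowest gaps, 0.03 to 0.04, were those of ssc-miR-27b-5p in C10H9orf3, ssc-miR-574 in FAM114A1, ssc-miR-30a-5p in LOC102157778, ssc-miR-126-5p in the endothelial gene EGFL7 and ssc-miR-149 in the glypican gene GPC1. Both partners of these 5 pairs were between -0.41 and 0.01 on the log2 scale. A pair with a large difference in the direction opposite to ssc-miR-204 was ssc-miR-335 in MEST, an imprinted gene, with log2 differences of 1.28 and 1.43 (adjusted p of MEST = 0.114 from limma). For ssc-miR-9843-3p in SGMS2, a sphingomyelin synthase gene, the values were -2.07 and -0.58.

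**Figure D2:**
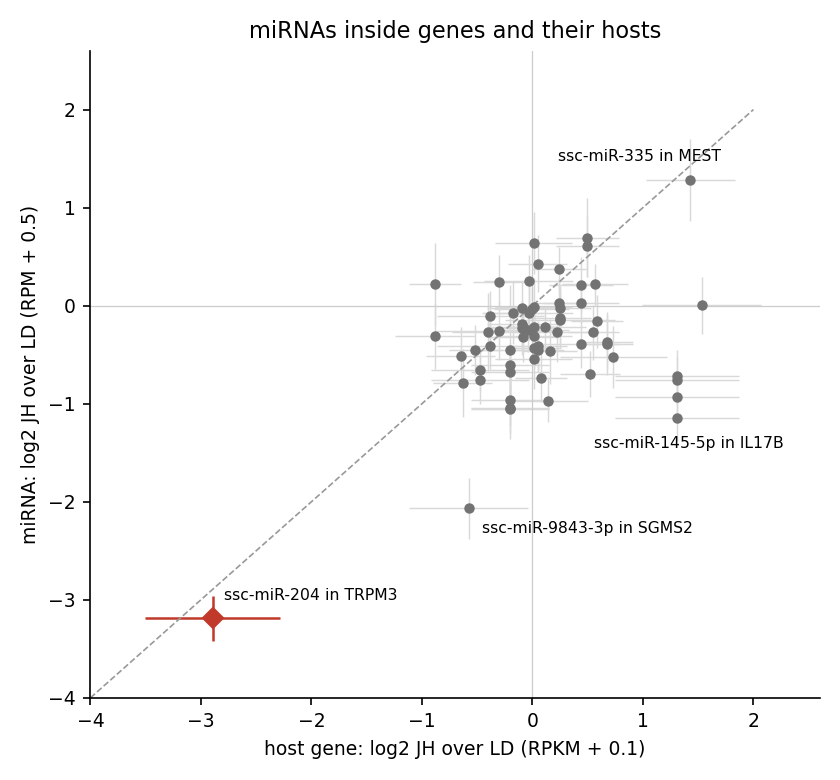
Log2 difference of JH over LD of each miRNA (vertical axis) against that of the gene spanning it (horizontal axis) for 67 pairs, with standard errors. The dashed line marks equal differences. The red diamond, ssc-miR-204 in TRPM3, lies at -3.19 and -2.89, and the value of TRPM3 moves with the pseudocount.

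The genes beside TRPM3 were taken from the same annotation, skipping loci that the mRNA tables do not hold. On one side lay KLF9, a Krüppel-like transcription factor, at 6.67 ± 3.92 RPKM (SD, n = 3) in JH and 16.6 ± 9.82 RPKM (SD, n = 3) in LD. Its lowest value was 2.46 RPKM in JH2 and its highest 27.3 RPKM in LD3. The breeds overlapped, and the log2 difference of -1.35 (standard error 0.56) was not called (adjusted p = 0.253 from limma). SMC5, of the SMC5/6 complex, followed at -0.51 (standard error 0.41). MAMDC2 was at -1.82 (standard error 0.71), with 0, 2 and 1 reads in JH and 3, 3 and 6 reads in LD. It entered the fit through the LD libraries alone. On the other side TMEM2, a cell surface hyaluronidase gene, was at 0.16 (standard error 0.27), ABHD17B, a depalmitoylating enzyme gene listed as FAM108B1, at 0.36 (standard error 0.30) and C1H9orf85 at 0.57 (standard error 0.53). The 3 neighbours on the KLF9 side had values below 0 and the 3 on the TMEM2 side values above 0, and limma called 0 of these 6 genes, with 2 at an unadjusted p under 0.05.

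EAF1 starts beside METTL6, an RNA methyltransferase gene, which it overlaps in Sscrofa11.1. Whether reads were counted by strand is not stated in the sources used here, so reads from the shared stretch cannot be assigned to one of them. METTL6 was at 4.10, 5.47 and 3.55 RPKM in JH and 5.64, 5.82 and 5.21 RPKM in LD, a log2 difference of -0.36 (standard error 0.25). Beyond METTL6, SH3BP5 was at -0.03 (standard error 0.28) and the calpain gene CAPN7 at -0.21 (standard error 0.23). On the other side COLQ, which anchors acetylcholinesterase, had at most 0.0646 RPKM and was not tested, and BTD, the biotinidase gene, was listed at 0.

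HACL1, a peroxisomal lyase of fatty acid α-oxidation that lies between COLQ and BTD, was at 97.0, 37.8 and 46.0 RPKM in JH1 to JH3 and 20.001, 41.2 and 29.9 RPKM in LD1 to LD3. Its log2 difference was 0.92 (standard error 0.40, adjusted p = 0.267 from limma), and its breeds overlapped. Of the 4 tested neighbours of EAF1 limma called 0, with 1 at an unadjusted p under 0.05.

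**Figure D3:**
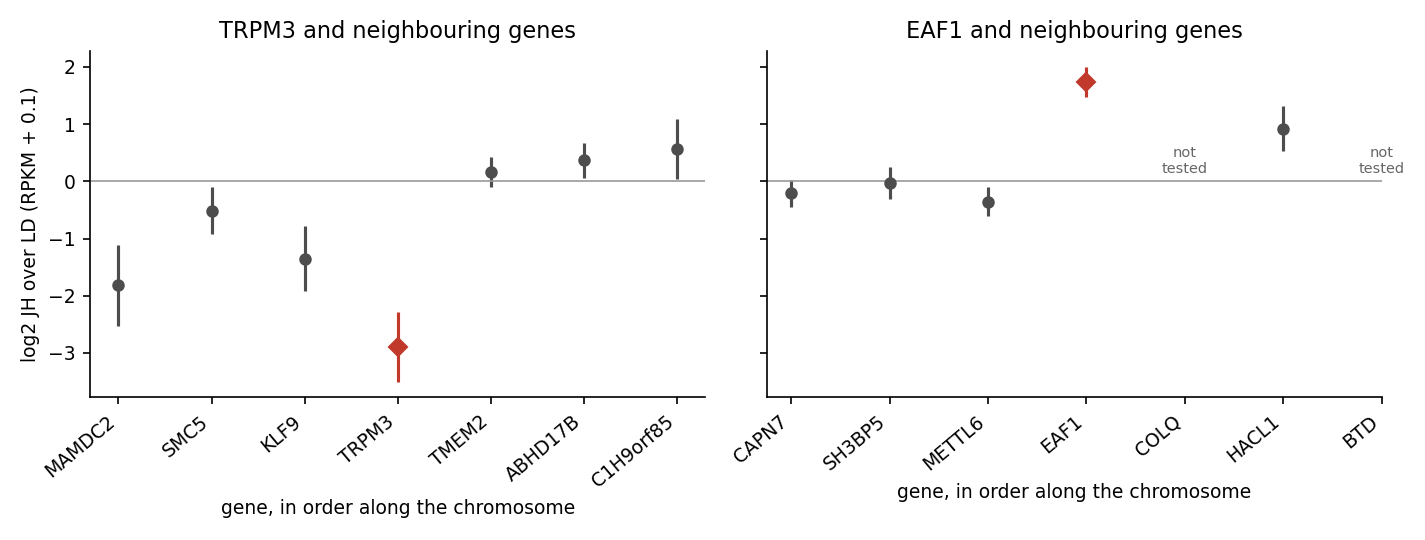
Log2 difference of JH over LD for TRPM3 and EAF1 (red diamonds) and the 3 genes on each side (grey dots), with standard errors, in their order along the chromosome. At a pseudocount of 0.1 TRPM3 is the lowest and EAF1 the highest of its own stretch, and COLQ and BTD were not tested. Both members were chosen on this contrast, so nothing is read from their place, and the value of TRPM3 moves with the pseudocount.

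EAF1 acts with the ELL proteins in the super elongation complex, so the other parts of this machinery were read from the same fit. Of 17 genes listed, 16 were in the files and 15 were tested. Limma called 0 of the 15, with 1 at an unadjusted p under 0.05, and their median log2 difference was 0.01. The binding partner ELL had the lowest value, -1.46 (standard error 0.50, adjusted p = 0.173 from limma). It rested on 3, 1 and 4 reads in JH and 6, 11 and 7 reads in LD. ELL2, the other tested ELL protein, was at 0.01 (standard error 0.25), with 6.86 ± 0.749 RPKM (SD, n = 3) in JH and 6.86 ± 1.30 RPKM (SD, n = 3) in LD.

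CDK9, the kinase of P-TEFb, had the highest value at 0.41 (standard error 0.27, adjusted p = 0.469 from limma). Its cyclins CCNT1 and CCNT2 were at 0.15 and -0.11, the scaffolds AFF1 and AFF4 at -0.42 and 0.19, and the inhibitor HEXIM1 at 0.14. In RPKM, which is per length, EAF1 with 46.5 in JH was above the JH mean of CDK9 of 37.4, while in LD its 13.5 was below the CDK9 mean of 28.1.

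For Wnt signalling, 32 genes were listed, of which 25 were in the files and 22 were tested. Of the 22, 2 were called, both lower in JH, and 6 had an unadjusted p under 0.05. The median was -0.18. FZD5, a Wnt receptor, was at 4.62, 2.63 and 3.98 RPKM in JH and 9.69, 8.93 and 10.7 RPKM in LD, with no overlap. It fell in JH by 1.39 on the log2 scale (standard error 0.27, adjusted p = 0.0375 from limma).

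GLUL, glutamine synthetase, which marks the hepatocytes next to the central vein, was at 53.8, 42.1 and 72.7 RPKM in JH and 113, 194 and 135 RPKM in LD. It fell by 1.39 (standard error 0.30, adjusted p = 0.0490 from limma), a call that was lost with the libraries brought to one median, with a pseudocount of 0.01 and with no filter on low values. When libraries were left out singly, both genes were called in 1 of 6 fits, the one without JH3. The calls were thus lost without JH1, JH2, LD1, LD2 or LD3. RNF43, a Wnt target that removes the receptors, had the highest value, 1.39 (standard error 0.30), and was not called (adjusted p = 0.0516 from limma).

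Other targets and carriers of the signal took no common side. TBX3 was at 0.97 (adjusted p = 0.173 from limma), AXIN2 at 0.97 (adjusted p = 0.398), CYP2E1 at -1.16 (adjusted p = 0.219) and CYP1A2 at -0.16. CTNNB1, which encodes β-catenin, was at -0.05 (standard error 0.22), with 56.7, 59.2 and 59.6 RPKM in JH and 66.2, 56.0 and 59.96 RPKM in LD.

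Genes described elsewhere as targets of miR-204 were listed by name, since no target sites were read here. Of 22, 19 were in the files and 10 were tested. Limma called 0 of the 10, with 2 at an unadjusted p under 0.05, and their median was -0.01. The 2 were SOX4 and BCL2, and both had values below 0, the same direction as ssc-miR-204 and opposite to EAF1. SOX4, a transcription factor, was at 1.36, 0.902 and 1.41 RPKM in JH and 4.26, 6.17 and 2.55 RPKM in LD, a difference of -1.68 (standard error 0.37, adjusted p = 0.0519 from limma).

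BCL2, the inhibitor of apoptosis, was at 0.919, 1.81 and 0.834 RPKM in JH and 3.82, 4.25 and 2.83 RPKM in LD, a difference of -1.59 (standard error 0.35, adjusted p = 0.0545 from limma). Both were called when the libraries were brought to one median. AP1S2, a subunit of a clathrin adaptor, had the highest value, 0.78 (standard error 0.38, adjusted p = 0.330 from limma), and its breeds did not overlap. The deacetylase SIRT1 was at 0.07 (standard error 0.27), and EZR, RAB22A and CDC42 lay between 0.00 and 0.08. RUNX2, the bone factor, was listed at 0 in 5 of 6 libraries, and SNAI2, GLP1R and HMGA2 in all 6. In size the log2 difference of EAF1, 1.74, was close to those of SOX4 and BCL2.

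**Figure D4:**
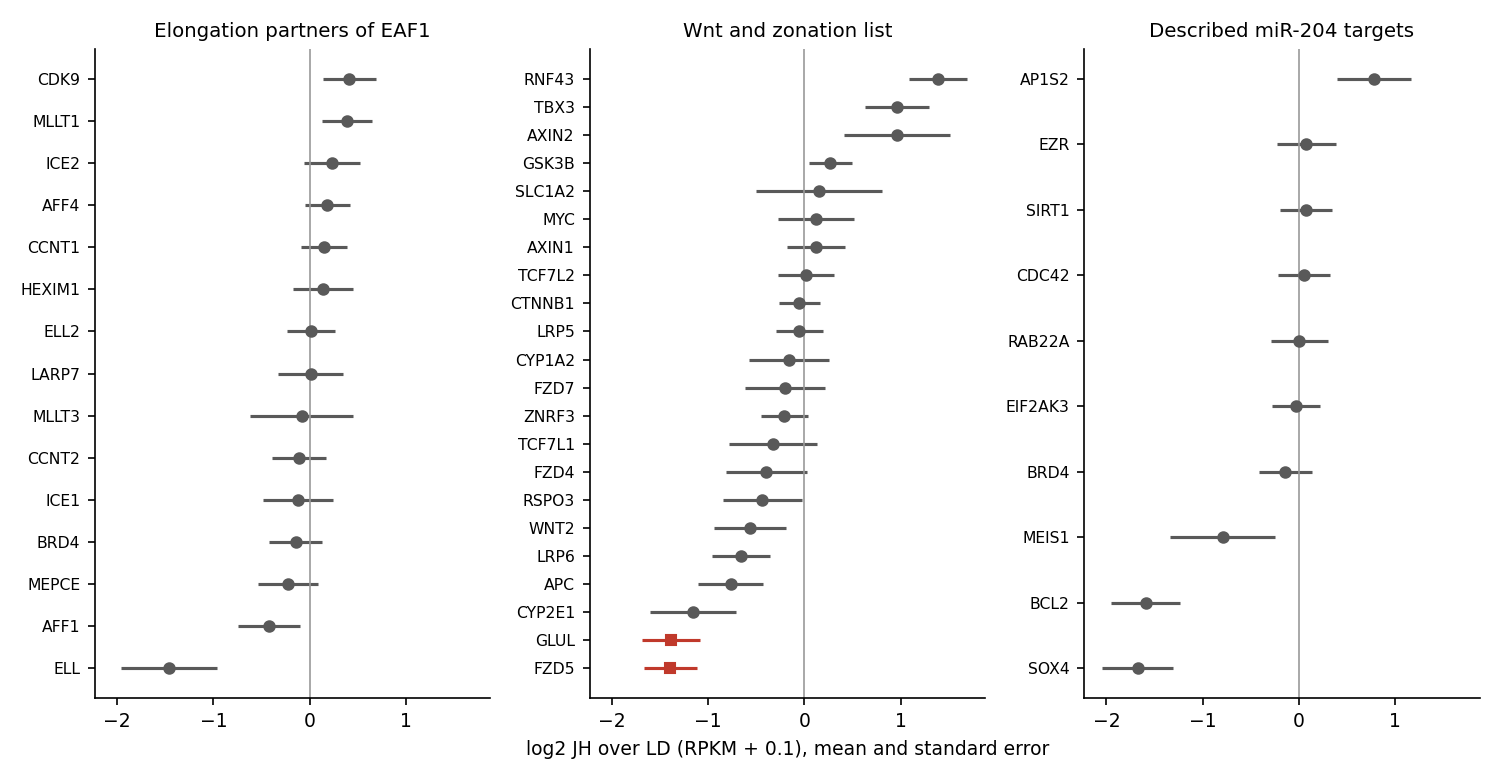
Log2 difference of JH over LD with standard errors for the elongation partners of EAF1, the Wnt and zonation list and the described targets of miR-204. Red squares mark the called genes GLUL and FZD5, and grey dots the genes not called.

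The other melastatin channels differed in level and direction. TRPM7, which is widely expressed, was at 10.9, 9.89 and 7.83 RPKM in JH and 10.6, 8.63 and 7.31 RPKM in LD, a difference of 0.11 (standard error 0.26). TRPM4 was at -1.71 (standard error 0.50, adjusted p = 0.123 from limma), with 0.321, 0.119 and 0.358 RPKM in JH and 1.17, 1.17 and 0.816 RPKM in LD. These stood for 2, 1 and 3 reads in JH and 9, 10 and 7 reads in LD. Like TRPM3, it reached 0.5 RPKM only in LD and so entered the fit through LD alone. TRPM8, the cold sensor, was at 1.61 (standard error 0.62, adjusted p = 0.218 from limma). Its values were 8.22, 6.82 and 6.35 RPKM in JH and 0.607, 4.91 and 3.55 RPKM in LD. Limma called 0 of these 3, with 2 at an unadjusted p under 0.05. TRPM6, with 0.319 ± 0.0842 RPKM (SD, n = 3) in JH and 0.546 ± 0.0739 RPKM (SD, n = 3) in LD, was below the limit for testing. At these low levels TRPM4 and TRPM6, like TRPM3, had every JH value below every LD value. TRPM8 had every JH value above every LD value, and TRPM7 overlapped. Over all tested genes 12.5% were apart with JH lower and 10.8% with JH higher. TRPM1 and TRPM2 were listed at 0.

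Of 5 genes known as regulators of TRPM3 or miR-204 in other tissues, 4 were tested. Limma called 0, with 2 at an unadjusted p under 0.05, and all 4 values were below 0, as were 6115 of all 12993 tested genes. SOX9 was at -2.07 (standard error 0.62, adjusted p = 0.127 from limma), the melanocyte and pigment epithelium factor MITF at -0.80, the glucose-responsive gene TXNIP at -0.69 and STAT3 at -0.52. SOX9 rested on 7, 5 and 2 reads in JH and 15, 58 and 16 reads in LD, and it is also in the bile duct list below. MITF rested on 2, 3 and 8 reads in JH and 8, 5 and 10 reads in LD. PAX6 was above 0 only in LD3, at 0.0388 RPKM. Of the 11 tested genes that process miRNAs or carry them, limma called 0, with 0 at an unadjusted p under 0.05. They ran from -0.65 for AGO4, listed as EIF2C4, to 0.56 for TARBP2, with DROSHA at -0.21 and DICER1 at -0.20.

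These are bulk samples, in which fewer cells of a type and less RNA per cell cannot be told apart. Markers of several cell types were therefore set beside the members. Liver was checked through its hepatocyte genes, of which ALB, TTR, APOA1, TF, HNF4A, ASGR1 and TAT were at 76.7 RPKM or more in every library. Limma called 0 of these 7, with 3 at an unadjusted p under 0.05, and their median was 0.08. The 5 hepatocyte miRNAs had a median of 0.01, with ssc-miR-122 at 0.01, and 0 were called or had an unadjusted p under 0.05. Of the genes of retinal pigment epithelium and choroid plexus, where miR-204 is abundant, RPE65 and CLIC6 were listed at 0, and BEST1, KL and KCNJ13 had at most 0.174 RPKM. TTR is also in the hepatocyte list and was at -0.17. FOLR1 was at 76.2 to 205 RPKM in these livers, with a log2 difference of 0.40.

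Stellate cell and fibroblast markers, all 6 endothelial markers and 3 of the 4 tested bile duct markers had values of the same sign as ssc-miR-204 and TRPM3. Of 12 stellate cell and fibroblast genes all had values below 0 and 4 were called lower in JH, 8 had an unadjusted p under 0.05, and the median was -1.41. Of all 12993 tested genes 6115 had values below 0, 1.36% were called lower in JH and 17.9% had an unadjusted p under 0.05. The summed level of the 12 genes was 102 to 124 RPKM in JH and 222 to 450 RPKM in LD, with no overlap. Collagen genes made up a large part of this sum. The collagen gene COL3A1 alone was at 30.6 to 46.8 RPKM in JH and 99.6 to 165 RPKM in LD. Singly, 7 of the 12 genes had no overlap between the breeds, as had 12.5% of all tested genes with JH lower. ACTA2, at 25.1 RPKM in JH1 and 20.1 RPKM in LD3, and TAGLN, at 23.3 and 19.2 RPKM, overlapped. The separation of the sum was therefore not read as a shift of every marker. COL1A1, a chain of type I collagen, was at 4.70, 7.93 and 6.81 RPKM in JH and 31.7, 89.7 and 29.4 RPKM in LD, and fell by 2.77 (standard error 0.43, adjusted p = 0.0144 from limma). LRAT, the retinol-storing enzyme of stellate cells, fell by 1.72 (standard error 0.34, adjusted p = 0.0384 from limma). With libraries left out singly COL1A1 was called in 6 of 6 fits, COL3A1 in 4, COL1A2 in 2 (without JH2 or LD3) and LRAT in 1 (without JH3). COL3A1 was not called without LD1 or LD2.

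Of the bile duct markers 6 were in the files, with KRT7 and KRT19 not analysed here, and 1 of 4 tested was called. The adhesion molecule EPCAM was at 1.27, 1.31 and 1.32 RPKM in JH and 3.69, 5.17 and 3.31 RPKM in LD, and fell by 1.55 (standard error 0.28, adjusted p = 0.0301 from limma). With libraries left out singly it was called in 1 of 6 fits, the one without JH3. In the other 5 fits only 79 to 164 genes were called in all. The log2 difference of EPCAM stayed between -1.67 and -1.12 over the alternatives run. The summed level of the list was 87.2 to 239 RPKM in JH and 62.7 to 130 RPKM in LD, most of it CLDN4. CLDN4 went the other way, at 146 ± 78.9 RPKM (SD, n = 3) in JH and 81.2 ± 32.5 RPKM (SD, n = 3) in LD. Its log2 difference was 0.79 (standard error 0.41, adjusted p = 0.358 from limma), and its breeds overlapped. Without CLDN4, a choice made after the values were seen, the sum was 1.94 to 3.47 RPKM in JH and 7.23 to 12.2 RPKM in LD. This part of the sum was therefore not read as a shift of the whole list.

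MiRNAs of fibroblasts, smooth muscle and epithelia were read in the same way. Of all 241 tested miRNAs 185 had values below 0, and 10.4% were called lower in JH. Of 9 fibroblast and smooth muscle miRNAs all had values below 0 and 4 were called lower in JH, with a median of -0.93. The 4 were ssc-miR-145-5p, ssc-miR-199a-3p, ssc-miR-199b-3p and ssc-miR-199b-5p, at -1.18 to -1.09, and ssc-miR-199a-3p and ssc-miR-199b-3p are near-identical sequences that can share reads. With the libraries brought to one median 0 of the 9 were called. Of 5 epithelial miRNAs 4 were called lower in JH, ssc-miR-429 at -1.80, ssc-miR-182 at -1.65, ssc-miR-96-5p at -1.55 and ssc-miR-183 at -1.49, and all but ssc-miR-96-5p also passed the adjusted p. The value of ssc-miR-96-5p rested on 13, 13 and 0 listed reads in JH and 49, 25 and 34 reads in LD.

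Endothelial genes had a median of -0.57, macrophage genes of 0.60 and lymphocyte genes of 0.24, and limma called 0 of 6, 0 of 5 and 0 of 6, with 2, 2 and 0 at an unadjusted p under 0.05. All 6 endothelial genes had values below 0. Of these, PECAM1, KDR and VWF had no overlap between the breeds, as had 12.5% of all tested genes with JH lower. The part of these cell types in the levels of ssc-miR-204, TRPM3 and EAF1 was not tested.

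**Figure D5:**
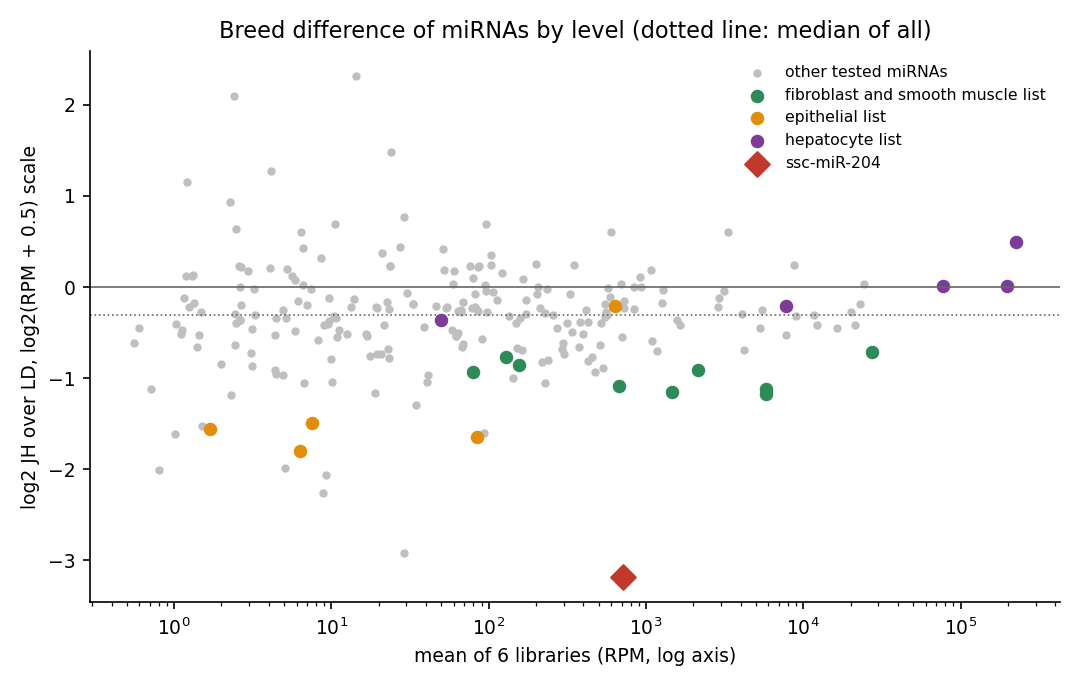
Log2 difference of JH over LD of 241 miRNAs against their mean level over 6 libraries (RPM, log axis). The red diamond is ssc-miR-204 at -3.19, coloured dots are the fibroblast and smooth muscle, epithelial and hepatocyte lists, and the dotted line is the median of -0.30.

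The features whose log2 values, centred on their mean over the 6 libraries, were nearest to ssc-miR-204 were found by the root mean square of the difference. Among 240 other miRNAs the nearest was ssc-miR-34a, known as a target of p53, at 0.27. It was at 6.46 ± 2.21 RPM (SD, n = 3) in JH and 51.1 ± 11.4 RPM (SD, n = 3) in LD. The next were ssc-miR-9843-3p at 0.66, ssc-miR-369 at 0.70, ssc-miR-429 at 0.74 and ssc-miR-370 at 0.77, of which ssc-miR-369 was listed at 0 in all JH libraries. A wide step thus lay between ssc-miR-34a and all other miRNAs.

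Among 12993 genes the nearest to ssc-miR-204 were AMPD3, an AMP deaminase, at 0.19, LOC102164134 at 0.20, FETUB, the secreted protease inhibitor fetuin B, at 0.23, LAMA3, a laminin chain, at 0.29 and LOC100625692 at 0.31. FETUB is abundant, with 86.8 to 129 RPKM in JH and 645 to 1010 RPKM in LD. TRPM3 held place 57 on this scale, at 0.65. With the sign of ssc-miR-204 reversed, the nearest were LOC102157999 at 0.32, MYOM2, a muscle structural protein, at 0.33, LOC102168019 at 0.34, WDR96 at 0.40 and LOC100739251 at 0.41, and EAF1 held place 78, at 0.81. LOC102164134 was listed at 0 in all JH libraries, and LOC102157999 and LOC102168019 were listed at 0 in all LD libraries. These 3 entered the fit through 1 breed alone, and their nearness depends on the pseudocount.

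The genes nearest to EAF1 were LOC100155812 at 0.17, LOC100514752 at 0.18, AGPAT4, a lysophospholipid acyltransferase, at 0.19, LOC102162761 at 0.20 and C13H3orf26 at 0.20. Those nearest to TRPM3 were LOC102160631 at 0.18, PTPRD, a receptor tyrosine phosphatase, at 0.21, GPAT at 0.39, KLB, the FGF21 co-receptor β-klotho, at 0.41 and KCNT2, a potassium channel, at 0.41. PTPRD was at 0.428 ± 0.362 RPKM (SD, n = 3) in JH and 3.46 ± 1.496 RPKM (SD, n = 3) in LD, and KLB at 3.14 ± 1.202 RPKM (SD, n = 3) in JH and 17.5 ± 5.74 RPKM (SD, n = 3) in LD. The likeness covers 6 libraries of 2 breeds and so mainly ranks the size of the breed difference.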

How the data were processed

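Liver RNA of 3 JH and 3 LD pigs was sequenced in 6 mRNA and 6 small RNA libraries, grouped by the public sample labels. For mRNA, the authors aligned 50 bp reads to Sus scrofa 10.2 with TopHat2 2.0.13, used gfold for the reads of each gene, and deposited RPKM values. For miRNA, the authors annotated clean reads against miRBase and deposited RPM values per clean reads. Raw reads were not used here. Reads behind each value were recovered from the step of the values, and 100% of the miRNA values and 99.9% of the mRNA values tested came out whole within a tolerance of 0.05. They describe counting error only.

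R 4.3.3 with limma 3.58.1 (lmFit, then eBayes with trend=TRUE) compared the breeds. Genes entered as log2(RPKM + 0.1) if 3 or more libraries had 0.5 RPKM, and miRNAs as log2(RPM + 0.5) if 3 or more libraries had 1 RPM. Fold changes on these scales understate those of low features. Genes were adjusted with Benjamini-Hochberg over all tested. The script was tested on simulated data. Labels do not say that the pigs were from separate litters, so p-values measure the spread between these samples.

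The members and lists were chosen with earlier results of these data known. Named were the members, list members (called first, then the highest and lowest), 3 neighbours on each side, the nearest 5 features by root mean square difference, the adjacent miRNAs in level and host pairs with the 5 widest and 5 narrowest gaps. ssc-miR-335 with MEST, ssc-miR-9843-3p with SGMS2, and further list genes were named after their values were seen. RefSeq of Sscrofa11.1 gave names, gene order and which genes span or overlap others, with no strand, so hosts were matched by position alone. No coordinates are printed, since the files use another build, and no sequences were used. A further hepatocyte marker gene is not reported here. Alternatives were other pseudocounts, no filter, other scalings, the replicate block, each library left out, voom and the ratio of means. Tables were made in Python 3.11.15.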

Additional observations from a re-analysis of the deposited data

How the results depend on the processing

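Of 198 alternative values, 168 were counted as kept, 30 as moved and 0 as reversed. Most were counts of called features, which cannot reverse, and several lists had 0 calls under every setting. Counts were compared by their total, so a changed split or changed names could pass as kept. The Wnt list under median scaling was 1 such case, with RNF43 called higher and FZD5 lower in place of GLUL and FZD5. The log2 difference of ssc-miR-204 was -2.79 under median scaling and -2.92 under quantile normalization, and that of TRPM3 was -1.004 at a pseudocount of 1, -4.16 at 0.01, -2.28 under quantile normalization and -3.81 as the ratio of breed means, which was added after the values were seen. The value of EAF1 moved by less than the spread between replicates under every alternative run. With each library left out in turn, ssc-miR-204 ranged from -3.33 to -3.03, TRPM3 from -3.31 to -2.66 and EAF1 from 1.53 to 1.93. Genes called were 199 at a pseudocount of 0.01, 200 with no filter and 79 to 406 with 1 library left out, the lowest without LD1 and the highest without JH3. Called genes of the Wnt list were 1 at a pseudocount of 0.01, 0 with no filter and 0 to 3 with 1 library left out, and called described targets were 1 at a pseudocount of 1, 2 under median scaling, quantile normalization and scaling without RN18S, and 0 to 1 with 1 library left out. MiRNAs called were 14 at a pseudocount of 5, when 1 epithelial miRNA was called, and 28 to 38 with 1 library left out. Of the called fibroblast and smooth muscle miRNAs, 0 remained under median scaling and quantile normalization. Under quantile normalization 8 called miRNAs were higher and 12 lower in JH, and the median of all miRNAs moved from -0.30 to 0.06, or to 0.09 under median scaling. With the replicate number as a block, 253 genes and 29 miRNAs were called, the standard error was 0.23 for ssc-miR-204, 0.57 for TRPM3 and 0.24 for EAF1, the calls of GLUL (adjusted p = 0.0703 from limma) and LRAT (adjusted p = 0.0640) were lost and RNF43 was called (adjusted p = 0.0465 from limma). Deviations from the breed mean of JH and LD libraries with equal numbers correlated at -0.02, 0.05 and 0.18 for mRNA and -0.07, -0.32 and -0.09 for miRNA, so the numbers were not read as pairs. An edgeR test on recovered reads was planned and not run, and limma's voom on recovered miRNA reads was added after the values were seen, with 35 miRNAs called. Depth limits TRPM3 in JH, where JH1 and JH2 each held 1 read.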
